A study of Saccharomyces cerevisiae with 10 samples.

Results

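Isoleucine, valine and leucine are the branched-chain amino acids, and budding yeast makes all of them from a short set of mostly mitochondrial enzymes. The genes described here are the 10 of that set chosen by name, ILV1, ILV2, ILV3, ILV5, ILV6, LEU1, LEU3, LEU4, LEU9 and BAT1. Each was matched by 1 probe set of the array through the platform annotation, so 10 of 5716 probe sets, or 10 of 5449 named genes, were taken. They were measured in total RNA of 4 Saccharomyces cerevisiae strains grown to mid-log phase in YPAD, a rich medium with adenine. The wild type was W303-1A (WT, 3 arrays), and the others lacked a gene of THO/TREX, the complex that couples transcription to the export of mRNA. These were SChY58a, in which kanMX4 replaces HPR1 (hpr1del, 3 arrays), DLY23, in which HIS3 replaces SUB2 (sub2del, 2 arrays), and RK2-6C, in which KanMX4 replaces THO2 (tho2del, 2 arrays). All 4 strains, WT included, are MATa and carry ura3-1, trp1-1, the double alleles leu2-3 leu2-112 and his3-11 his3-15, can1-100 and ade2-1, so all of them are leucine auxotrophs with a defective LEU2, which is not among the 10 genes. Each genotype was 1 strain, and the arrays of a strain are labelled biological replicates, with nothing said of how the cultures were run, so a p-value here reflects only how far these arrays lie apart.

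Isoleucine starts from threonine, which the deaminase Ilv1 turns into 2-ketobutyrate. Valine starts from pyruvate, and the same enzymes then serve both routes, namely acetolactate synthase (Ilv2 with its regulatory subunit Ilv6), the reductoisomerase Ilv5, the dehydratase Ilv3 and a transaminase. Leucine branches off from the ketoacid of valine through the isopropylmalate synthases Leu4 and Leu9, the isomerase Leu1 and the dehydrogenase Leu2. The transcription factor Leu3 activates many of these genes when the intermediate 2-isopropylmalate is present and represses them when it is not, and Gcn4, the activator of general amino acid control, acts on many of them too. Ilv3 and Leu1 carry an iron-sulfur cluster.

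The values were the authors' deposited linear intensities, which ran from 1 to 35972 over all probe sets, and their scaling is not stated. Array medians lay between 1346 and 1541. The deleted genes read lowest in their own strains. HPR1 lay between 188 and 209 in hpr1del and between 517 and 629 in WT, SUB2 between 54.6 and 104 in sub2del and between 11974 and 12692 in WT, and THO2 between 183 and 322 in tho2del and between 2363 and 2556 in WT. Of the 6 markers of MATa cells, MFA1 and MFA2 had values on every array, and their sum was 4451 to 8629 in WT, 10905 to 16363 in hpr1del, 13167 to 13344 in sub2del and 22840 to 24608 in tho2del. The 4 MATalpha markers summed to between 1041 and 1241 in WT, 1303 and 1438 in hpr1del, 2081 and 2440 in tho2del, and 2790 and 4097 in sub2del, most of it SAG1, an agglutinin gene. That sum hides markers that differed. STE3 averaged 271 in WT and 162, 187 and 183 in hpr1del, sub2del and tho2del. MF(ALPHA)2 averaged 135 in WT and 56.5, 104 and 138 in the same order. The MATa markers STE2, BAR1 and STE6 had empty cells on all sub2del and tho2del arrays. In hpr1del STE6 averaged 2758 against 3540 in WT, while STE2 (9132 against 6448) and BAR1 (2572 against 1050) averaged above WT. No marker was listed at 0, and the part of these shifts in the results below was not tested.

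Empty cells were uneven. WT replicate 2 and the sub2del and tho2del arrays had between 414 and 811 empty cells each, and the other 5 arrays between 7 and 66. Of the 100 values of the 10 genes, 5 were empty, ILV2, ILV3, ILV6 and LEU1 in WT replicate 2 and ILV3 in sub2del replicate 2. ILV3 was therefore not tested in sub2del. Because each mutant strain lay wholly on one side of this split, results are also given within arrays of the same kind. In bulk RNA, fewer transcripts per cell and fewer cells that express a gene cannot be told apart.

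The comparisons with WT ask what the loss of each subunit changes. Of the 10 genes, 8 were lower in hpr1del and 0 higher, 8 of 9 tested were lower in sub2del and 0 higher, and 9 of 10 were lower in tho2del and 0 higher, by limma with Benjamini-Hochberg adjustment over all probe sets at a threshold of 0.05. Over all tested probe sets 22.8% were called lower in hpr1del, 40.4% in sub2del and 32.6% in tho2del, and 22.8%, 20.8% and 24.4% higher. Median log2 changes of the genes were -0.57, -1.0 and -1.09, beside -0.01, -0.16 and -0.06 over all tested probe sets. Every array of the mutant lay below every WT array for 9 genes in hpr1del, 8 in sub2del and 9 in tho2del, against 29.1%, 45.9% and 39.2% of all tested probe sets. Log2 changes of the genes ran from -0.82 to -0.15 in hpr1del, from -1.42 to -0.31 in sub2del and from -1.48 to -0.23 in tho2del. The 3 comparisons share the WT arrays and are not independent of each other.

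**Figure D1:**
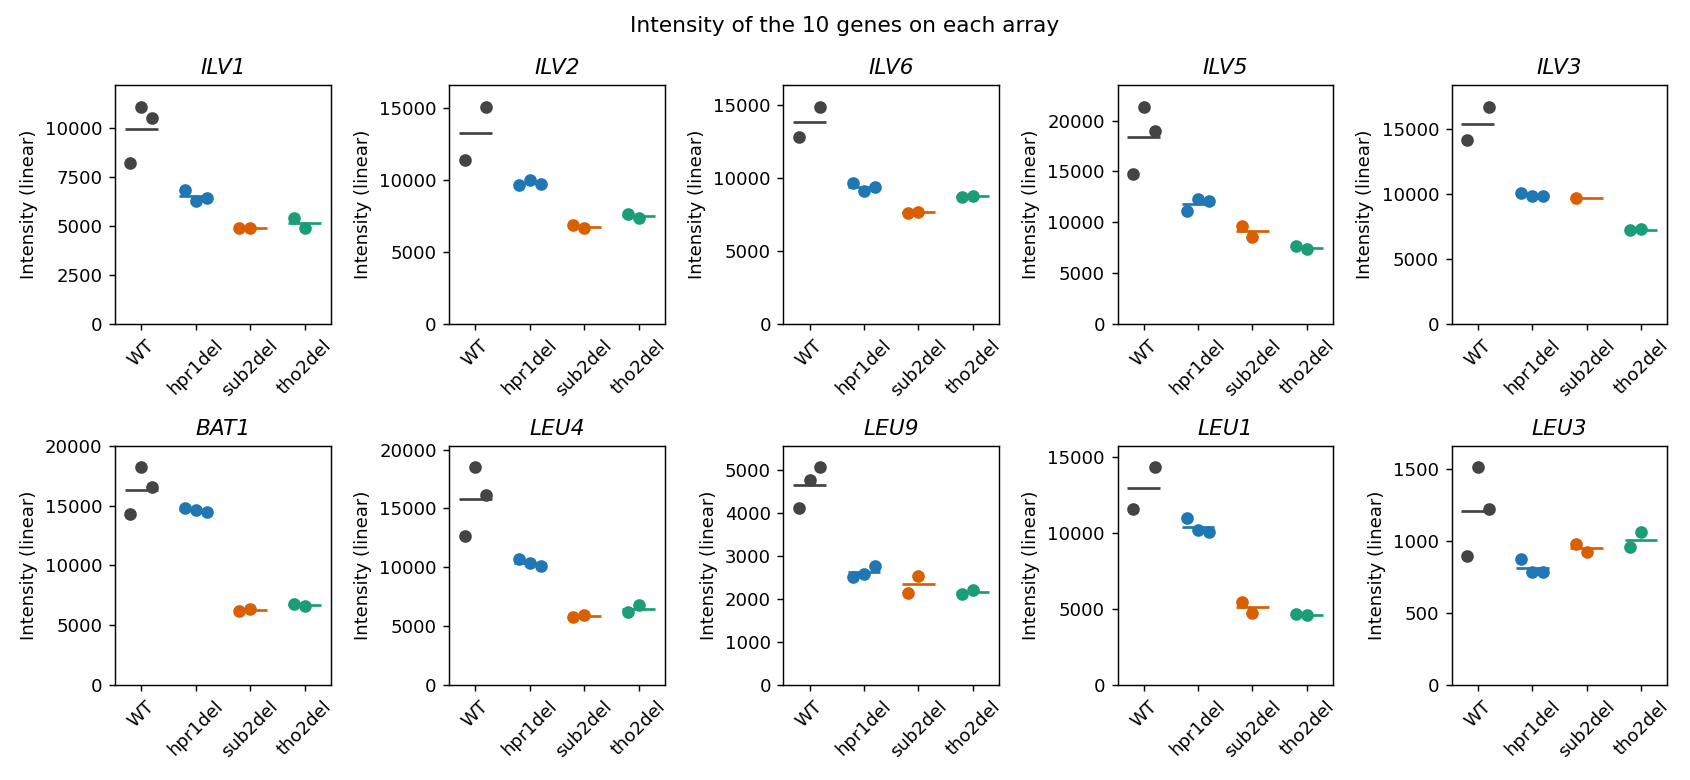
Linear intensity (y axis, from 0) of each of the 10 genes on every array, by strain (x axis), with a point per array and a bar at the strain mean. BAT1 stayed near its WT level in hpr1del (mean 14665 against 16376) and was far lower in sub2del and tho2del (6256 and 6680), while LEU3 overlapped WT in sub2del and tho2del.

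The WT arrays spread more than those of the mutants. The highest WT value of a gene was between 1.16 and 1.69 times its lowest, while in the mutants this ratio was at most 1.19. WT replicate 1 was the lowest WT array for all 10 genes, and of the 6 genes with 3 WT values, 5 were highest in replicate 2 and LEU9 in replicate 3. The 8 general stress genes, a list that includes the heat shock gene HSP12 and the trehalose synthesis genes TPS2 and TSL1, summed to 54739 in WT replicate 1 and to 40894 and 31576 in replicates 2 and 3. The same sum was 51449 to 55734 in hpr1del, 39013 to 42872 in sub2del and 39677 to 43384 in tho2del, none of the genes was listed at 0, and the part of this list in the results was not tested. The sum hides members that differed. In WT replicates 1, 2 and 3, HSP12 read 7567, 13651 and 8320, lowest in replicate 1. TSL1 read 9209, 2805 and 2775 and TPS2 7604, 3288 and 3769, both highest there. In hpr1del HSP12 averaged 20695 against 9846 in WT. TSL1 (2363 against 4930) and TPS2 (3510 against 4887) averaged below WT in hpr1del, neither being called. Without WT replicate 1, 6 genes could be tested, and all 6 were lower in each mutant, BAT1 in hpr1del and LEU3 in sub2del and tho2del among them. The share of all probe sets called lower in that setting is not given here. Leaving out single arrays gave 1915 to 2882 probe sets called in hpr1del, 2477 to 3094 in sub2del and 2140 to 2899 in tho2del. With all arrays the counts were 2581, 2936 and 2710.

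**Figure D2:**
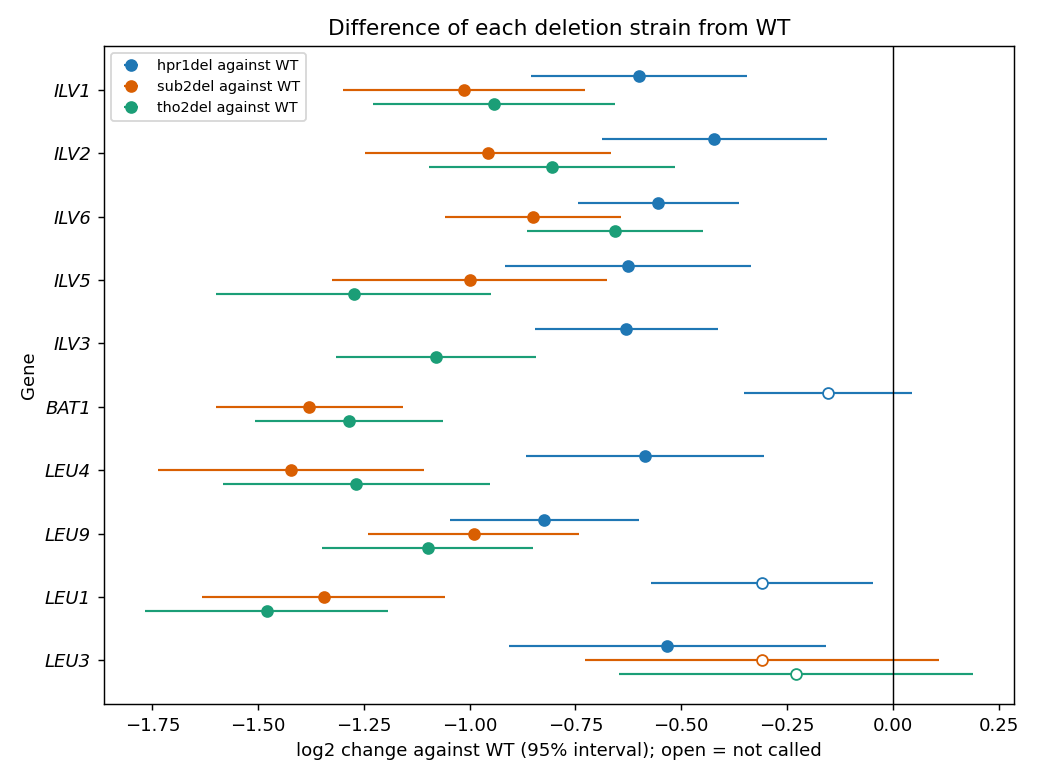
log2 change of (intensity + 16) against WT (x axis) with 95% intervals from limma, for each gene (y axis) in the 3 deletion strains. Filled points passed the threshold, and the open points are BAT1 and LEU1 in hpr1del and LEU3 in sub2del and tho2del.

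ILV1, which encodes the threonine deaminase that opens the isoleucine route, read 8218, 11105 and 10535 in WT. It read 6866, 6258 and 6413 in hpr1del, 5394 and 4876 in tho2del, and 4879 and 4884 in sub2del. All mutant arrays lay below all WT arrays, and hpr1del lay between WT and the other mutants without overlap. The log2 change was -0.60 ± 0.11 (SE) in hpr1del, -1.01 ± 0.13 in sub2del and -0.94 ± 0.13 in tho2del (limma adjusted p = 0.00282, 0.000158 and 0.000303).

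ILV2, the catalytic subunit of acetolactate synthase, read 11423 and 15106 in WT, 9640, 10004 and 9758 in hpr1del, 7631 and 7383 in tho2del, and 6847 and 6681 in sub2del. ILV6, the regulatory subunit that makes the enzyme sensitive to valine, read 12802 and 14902 in WT, 9666, 9134 and 9408 in hpr1del, 8718 and 8799 in tho2del, and 7630 and 7680 in sub2del. For both subunits all mutant arrays were below both filled WT arrays, and the strains lay in the same order, WT, hpr1del, tho2del and sub2del. ILV2 changed by -0.42 ± 0.11, -0.96 ± 0.12 and -0.81 ± 0.12 in hpr1del, sub2del and tho2del (limma adjusted p = 0.0189, 0.000362 and 0.00106). ILV6 changed by -0.55 ± 0.08, -0.85 ± 0.09 and -0.66 ± 0.09 (limma adjusted p = 0.00127, 0.000118 and 0.000559). The call of ILV2 in hpr1del was lost with only the arrays of these strains (limma adjusted p = 0.0550), without hpr1del replicate 1 (-0.41, 0.0561) and without hpr1del replicate 3 (-0.42, 0.0561).

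ILV5, the reductoisomerase, which also helps to maintain mitochondrial DNA, read 14802, 21387 and 19024 in WT. It read 11063, 12244 and 12090 in hpr1del, 7619 and 7408 in tho2del, and 9651 and 8563 in sub2del. No strain overlapped another, and tho2del was lowest, at 40.8% of the WT mean, against 49.5% in sub2del and 64.1% in hpr1del. The log2 changes were -0.63 ± 0.13, -1.0 ± 0.14 and -1.27 ± 0.14 in hpr1del, sub2del and tho2del (limma adjusted p = 0.00434, 0.000361 and 0.000117). ILV3, the iron-sulfur dehydratase that makes the ketoacids of isoleucine and valine, read 14095 and 16688 in WT, 10050, 9831 and 9830 in hpr1del, and 7172 and 7320 in tho2del. The only sub2del value was 9665, just under the hpr1del arrays and above the tho2del arrays. ILV3 fell by 0.63 ± 0.09 on the log2 scale in hpr1del and by 1.08 ± 0.10 in tho2del (limma adjusted p = 0.00175 and 0.000155).

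BAT1 encodes the mitochondrial transaminase that makes the amino acids from their ketoacids. It read 14310, 18238 and 16579 in WT and 14859, 14685 and 14451 in hpr1del. Thus hpr1del lay within the range of WT, with a log2 difference of -0.15 ± 0.09 and a 95% interval from -0.35 to 0.05 (limma adjusted p = 0.185). Without WT replicate 1, BAT1 passed in hpr1del (log2 -0.25, limma adjusted p = 0.00953). In sub2del it read 6200 and 6313 and in tho2del 6766 and 6595, far under all WT arrays, at 38.2% and 40.8% of the WT mean. These were log2 changes of -1.38 ± 0.10 and -1.28 ± 0.10 (limma adjusted p = 9.47e-06 and 1.74e-05).

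Of the leucine branch, LEU4, the main isopropylmalate synthase gene, read 12687, 18488 and 16111 in WT, 10676, 10346 and 10092 in hpr1del, 6196 and 6733 in tho2del, and 5725 and 5879 in sub2del. It changed by -0.59 ± 0.12, -1.42 ± 0.14 and -1.27 ± 0.14 in hpr1del, sub2del and tho2del (limma adjusted p = 0.00504, 4.37e-05 and 0.000101). LEU9, its paralog, read 4128, 4776 and 5068 in WT, 2515, 2569 and 2768 in hpr1del, 2106 and 2209 in tho2del, and 2137 and 2535 in sub2del. Unlike for LEU4, the hpr1del and sub2del arrays of LEU9 overlapped. LEU9 had the lowest level relative to WT of the 10 genes in hpr1del, 56.2% of the WT mean, with a log2 change of -0.82 ± 0.10, beside -0.99 ± 0.11 in sub2del and -1.10 ± 0.11 in tho2del (limma adjusted p = 0.000288, 8.40e-05 and 6.02e-05). Transcripts of such paralogs can share probes, which was not analysed here.

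LEU1, the iron-sulfur isomerase of the leucine branch, read 11596 and 14304 in WT and 11004, 10183 and 10018 in hpr1del. On the other mutants' arrays it read 5469 and 4684 (sub2del) and 4643 and 4571 (tho2del). The hpr1del arrays lay just under WT, and the difference of -0.31 ± 0.11 did not pass (95% interval from -0.57 to -0.05, limma adjusted p = 0.0563). It passed there without the dimmest 25% of probe sets (limma adjusted p = 0.0458), without WT replicate 2 (0.0496) and with the kind of array as a block (0.0494), with the same change each time. In sub2del and tho2del LEU1 was at 39.2% and 35.6% of the WT mean, log2 changes of -1.34 ± 0.12 and -1.48 ± 0.12 (limma adjusted p = 6.13e-05 and 4.70e-05).

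LEU3, the gene of the pathway's own transcription factor, read 895, 1509 and 1218 in WT, 874, 784 and 780 in hpr1del, 953 and 1061 in tho2del, and 978 and 924 in sub2del. WT replicate 1 lay below all sub2del and tho2del arrays, so these strains overlapped WT. The log2 difference was -0.31 ± 0.18 in sub2del (95% interval from -0.73 to 0.11, limma adjusted p = 0.176) and -0.23 ± 0.18 in tho2del (-0.65 to 0.19, limma adjusted p = 0.315). In hpr1del it was -0.53 ± 0.16 (limma adjusted p = 0.0276). That call was lost without WT replicate 2 (-0.36, limma adjusted p = 0.0554), without WT replicate 3 (-0.51, 0.0699), without hpr1del replicate 2 (-0.51, 0.0826) and without hpr1del replicate 3 (-0.50, 0.0825), and with only the arrays compared (0.0622). Without WT replicate 1 the opposite happened, and LEU3 passed in sub2del (-0.51, limma adjusted p = 0.00439) and tho2del (-0.43, 0.0110) too.

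Within arrays of the same kind, hpr1del was set against WT replicates 1 and 3, and 7 genes passed, LEU1 (limma adjusted p = 0.0757), LEU3 (-0.36, 0.105) and BAT1 (-0.07, 0.533) being the others. All 7 were lower. Of 5619 probe sets tested there, 1175 were called lower and 1201 higher. The sub2del and tho2del arrays could be set only against WT replicate 2, which had values for 6 of the genes. That array was the highest WT array for 5 of these 6. The log2 differences from it ran from -0.66 (LEU3) to -1.67 (LEU4) in sub2del and from -0.58 (LEU3) to -1.51 (LEU4) in tho2del. For BAT1 they were -1.54 and -1.45. No test is given for these, since 1 WT array shows no spread and WT arrays spread more than those of the mutants.

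The comparisons between mutants leave out the WT mean and ask whether the subunits differ. Of 9 genes tested, 6 were lower in sub2del than in hpr1del and 0 higher, where 35.6% of all tested probe sets were lower and 16% higher. Of 10 genes, 6 were lower in tho2del than in hpr1del and 0 higher, where 22.3% of probe sets were lower and 15.4% higher. All arrays lay below those of hpr1del for 7 genes in sub2del and 9 in tho2del, beside 53.9% and 42.9% of probe sets, and above them for 1 gene, LEU3, beside 26.4% and 33%. The gene medians of the log2 difference were -0.41 and -0.42, and those of all tested probe sets -0.16 and -0.04.

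**Figure D3:**
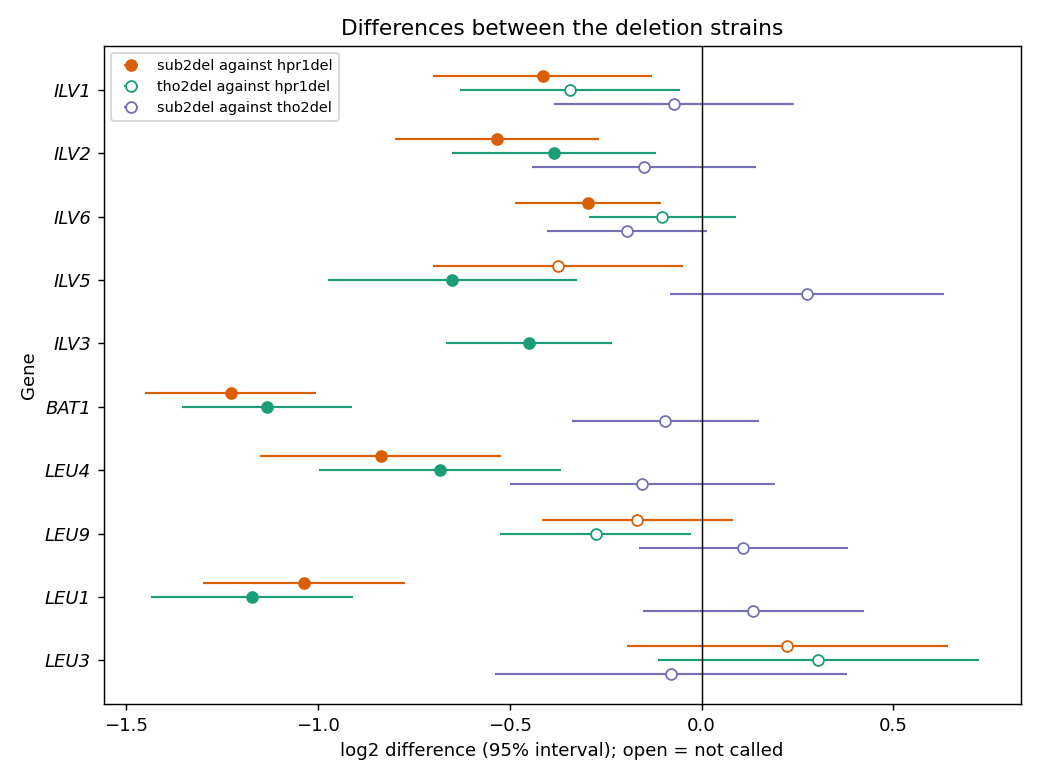
log2 differences between deletion strains (x axis) with 95% intervals from limma, for each gene (y axis). Filled points passed the threshold. BAT1 and LEU1 lie furthest below hpr1del, at between -1.04 and -1.23, and every interval of sub2del against tho2del includes 0.

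BAT1 and LEU1 set the mutants apart most. BAT1 differed from hpr1del by -1.23 ± 0.10 in sub2del and -1.13 ± 0.10 in tho2del (limma adjusted p = 4.44e-05 and 0.000126). LEU1 differed by -1.04 ± 0.11 and -1.17 ± 0.11 (limma adjusted p = 0.000303 and 0.000322). LEU4 followed at -0.84 ± 0.14 and -0.68 ± 0.14 (limma adjusted p = 0.00135 and 0.00574). These calls held in all alternatives in which they could be tested. The kind of array follows the strains here, and with it as a block, which rests on WT replicate 2 against the other WT arrays, BAT1 differed by -1.47 and -1.38 and LEU4 by -1.21 and -1.05, while LEU1 could not be fitted.

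The smaller differences were less stable. The difference of ILV2 from hpr1del was -0.53 ± 0.11 in sub2del (limma adjusted p = 0.00619) and -0.38 ± 0.11 in tho2del (limma adjusted p = 0.0330). The tho2del call was lost without any one of the 5 arrays compared, with limma adjusted p from 0.0735 without hpr1del replicate 1 to 0.150 without tho2del replicate 2. ILV1 and ILV6 passed in sub2del (-0.41 ± 0.13 and -0.30 ± 0.08, limma adjusted p = 0.0230 and 0.0187), and both calls were lost without hpr1del replicate 1 or 3 or either sub2del array (limma adjusted p between 0.0535 and 0.0943). ILV6 was also lost after array medians were subtracted (0.0673). ILV5 and ILV3 passed in tho2del (-0.65 ± 0.14 and -0.45 ± 0.09, limma adjusted p = 0.00828 and 0.00936). Without tho2del replicate 2 both were lost (limma adjusted p = 0.0565 and 0.0531), as was ILV3 without tho2del replicate 1 (0.0604). The number of genes called fell from 6 to 3 without tho2del replicate 2, and that of all probe sets from 1799 to 1057. LEU9 did not pass in either (-0.17 ± 0.11 and -0.28 ± 0.11, 95% intervals from -0.42 to 0.08 and from -0.52 to -0.03). In tho2del it passed after quantile normalization (limma adjusted p = 0.0464), after array medians were subtracted (0.0468) and with only the arrays compared (0.00984). ILV1 differed by -0.34 ± 0.13 in tho2del (limma adjusted p = 0.0601) and passed in 4 alternatives (0.00639 to 0.0494), and ILV5 by -0.37 ± 0.14 in sub2del (limma adjusted p = 0.0548) and passed in 3 (0.00578 to 0.0458). Over the alternatives, 3 to 8 genes were called in sub2del and 3 to 9 in tho2del, the highest counts with only the arrays compared. The number of all probe sets called moved too, from 1668 to 3313 in sub2del and from 1057 to 2849 in tho2del. LEU3 differed by 0.22 ± 0.18 in sub2del and 0.30 ± 0.18 in tho2del (limma adjusted p = 0.332 and 0.225), and these turned to -0.30 and -0.22 with the kind of array as a block. With only the arrays compared, LEU3 passed as higher than hpr1del in both (limma adjusted p = 0.0298 and 0.0153).

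Between sub2del and tho2del, 0 of 9 genes passed with limma, and 0 had an unadjusted p under 0.05, while 20.8% of all tested probe sets were called, 12.2% lower and 8.56% higher. The differences ran from -0.19 (ILV6) to 0.27 (ILV5), and the 95% intervals together reached from -0.54 to 0.63. With 2 arrays a strain, differences of the size seen against hpr1del in BAT1 and LEU1 lay outside their intervals here, which were -0.34 to 0.15 for BAT1 and -0.15 to 0.42 for LEU1. All sub2del arrays lay below those of tho2del for 4 genes and above for 2, beside 54.3% and 18.3% of all tested probe sets.

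By mean level, WT was highest for all 10 genes. For 9 of them hpr1del came next, and for LEU3 hpr1del was lowest. The lower places were held by sub2del and tho2del in either order, and no pair of neighbours there passed the test. The step from WT to hpr1del did not pass for BAT1 and LEU1, and the step from hpr1del to the next strain did not pass for ILV1, ILV5, ILV6 and LEU9 as reported, though it did for ILV1 and ILV5 in the alternatives above, and was not tested for ILV3.

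Genes next to the pathway, which were chosen by role, gave a similar order in part. LEU2, the isopropylmalate dehydrogenase gene and a mutant allele in all 4 strains, read 5043, 7901 and 5399 in WT and 3041, 2595 and 2688 in hpr1del. It read 745 and 639 in sub2del and 1127 and 1029 in tho2del, so that no strains overlapped. LEU2 changed by -1.11 ± 0.16, -3.09 ± 0.18 and -2.46 ± 0.18 in hpr1del, sub2del and tho2del (limma adjusted p = 0.000815, 4.76e-06 and 1.55e-05). OAC1 encodes a mitochondrial carrier that exports isopropylmalate. It had 1 WT value, 5882, so was not tested against WT, and read 6105, 5661 and 5861 in hpr1del, 1452 and 1265 in tho2del, and 1283 and 1158 in sub2del. OAC1 differed from hpr1del by -2.25 ± 0.09 in sub2del and -2.10 ± 0.09 in tho2del (limma adjusted p = 1.89e-05 and 4.99e-05).

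GDH1, which makes the glutamate that donates the amino group, read 13620, 15222 and 13674 in WT and 16565, 16518 and 15460 in hpr1del, above WT on every array. It read 7412 and 6569 in sub2del and 10754 and 9998 in tho2del. GDH1 fell in sub2del and tho2del (-1.02 ± 0.09 and -0.45 ± 0.09, limma adjusted p = 2.27e-05 and 0.00228), and in hpr1del its difference was 0.19 ± 0.08 (limma adjusted p = 0.0716). LEU2, OAC1 and GDH1 are known targets of Leu3, as are BAT1, LEU1, LEU4, ILV2 and ILV5. Whether Leu3 had a part in these values was not tested. The cytosolic transaminase gene BAT2 fell in hpr1del and tho2del (-0.84 ± 0.25 and -0.99 ± 0.28, limma adjusted p = 0.0280 and 0.0179), with WT arrays from 5408 to 11687. Its only sub2del value, 8856, lay within that range. MMF1, a mitochondrial protein needed for isoleucine synthesis, fell in all mutants, by 0.25 ± 0.08 in hpr1del, 0.83 ± 0.09 in sub2del and 0.78 ± 0.09 in tho2del on the log2 scale (limma adjusted p = 0.0333, 8.15e-05 and 0.000136). Of the 8 neighbours, 5 of 7 tested were lower and 0 higher in hpr1del, 3 of 5 lower and 0 higher in sub2del, and 5 of 7 lower and 1 higher in tho2del. Of all tested probe sets 22.8%, 40.4% and 32.6% were lower and 22.8%, 20.8% and 24.4% higher. LEU5, named here after its values were seen, was the gene higher in tho2del (0.57 ± 0.21, limma adjusted p = 0.0467). In hpr1del LEU5 was lower (-0.58 ± 0.19, limma adjusted p = 0.0379). ECM31, of pantothenate synthesis, which starts from the ketoacid of valine, fell by 0.69 on the log2 scale in hpr1del and in tho2del (limma adjusted p = 0.0154 and 0.0199) and differed by -0.31 in sub2del (limma adjusted p = 0.218).

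**Figure D4:**
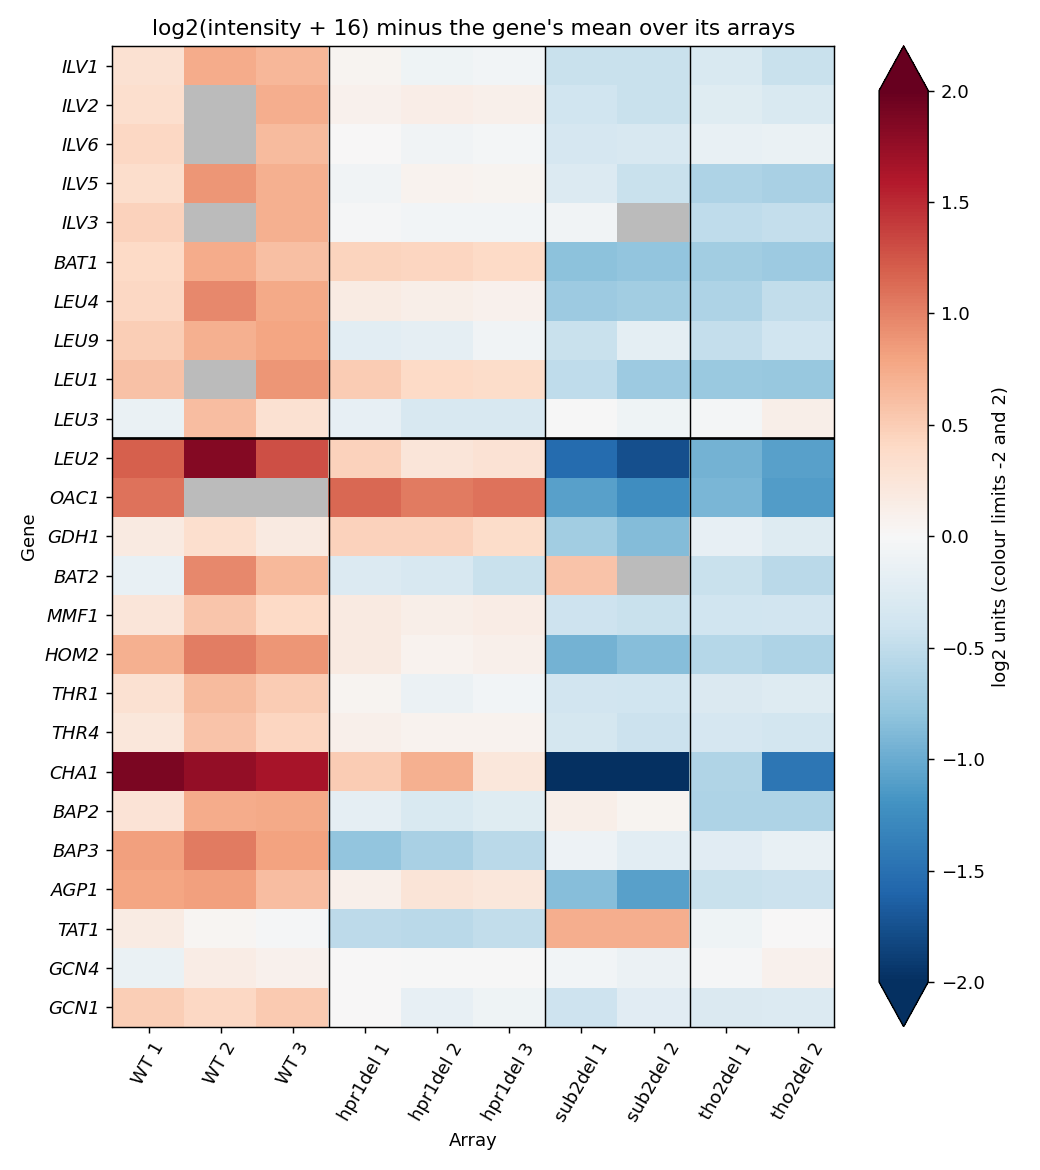
log2(intensity + 16) minus the gene's mean over its filled arrays, with genes in rows (the 10 genes above the line, related genes below it) and arrays in columns by strain. Grey cells were empty. BAT1, LEU1, LEU2, OAC1 and GDH1 are above their means on the hpr1del arrays and below them on the sub2del and tho2del arrays. This is not particular to them, since other rows, among them ILV2, LEU4, HOM2, CHA1 and AGP1, do the same.

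Threonine feeds Ilv1, and most tested genes of a list on its synthesis and breakdown were lower. Of 5 tested genes, 4 were lower and 0 higher in hpr1del, 4 lower and 1 higher in sub2del, and 5 lower in tho2del, with 22.8%, 40.4% and 32.6% of all tested probe sets lower. One of the lower genes in each mutant, CHA1, acts in breakdown, and HOM6, named here after its values were seen, differed by 0.03 in hpr1del (limma adjusted p = 0.780) and was the gene higher in sub2del. HOM2, an early step from aspartate, read 18469, 22948 and 20640 in WT, 12766, 11816 and 12004 in hpr1del, 7596 and 7312 in tho2del, and 5808 and 6247 in sub2del. THR1 and THR4, the last steps to threonine, were lower by 0.33 to 0.87 on the log2 scale in the 3 mutants. CHA1, a second threonine deaminase that breaks the amino acid down, read 2711, 2481 and 2319 in WT, 1039, 1202 and 856 in hpr1del, 474 and 255 in tho2del, and 136 and 123 in sub2del. CHA1 was also lower in sub2del than in tho2del (-1.32 ± 0.25, limma adjusted p = 0.00868), a pair between which 0 of the 9 tested branched-chain genes passed.

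Of 11 tested genes of permeases and their sensing pathway, 5 were lower and 0 higher in hpr1del, and of 9, 4 were lower and 1 higher in sub2del and 4 lower and 0 higher in tho2del. The shares of all tested probe sets called lower were 22.8%, 40.4% and 32.6%, so the count in sub2del was near the array-wide share. The permease gene BAP3 fell in all 3 (-1.54 ± 0.09, -1.04 ± 0.10 and -1.07 ± 0.10, limma adjusted p = 1.18e-05, 4.36e-05 and 4.51e-05), as did BAP2 (-0.83 ± 0.12, -0.50 ± 0.14 and -1.20 ± 0.14) and AGP1 (-0.55 ± 0.09, -1.71 ± 0.10 and -1.19 ± 0.10). TAT1, a permease gene for valine, leucine and other residues, fell in hpr1del (-0.58 ± 0.07, limma adjusted p = 0.000232) and rose in sub2del (0.67 ± 0.07, limma adjusted p = 8.27e-05). The difference between these strains was 1.25 ± 0.07 (limma adjusted p = 1.69e-05).

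Of 10 tested genes of the breakdown to fusel alcohols and esters, 5 were lower and 1 higher in hpr1del. Of 8 tested, 3 were lower and 1 higher in sub2del, and 3 lower and 3 higher in tho2del. The list includes the transaminase gene BAT2, whose lower calls in hpr1del and tho2del were also counted among the neighbours above. With 22.8%, 40.4% and 32.6% of all tested probe sets lower, the counts of lower genes in sub2del and tho2del were near the array-wide shares. The shares higher were 22.8%, 20.8% and 24.4%. ARO10, a ketoacid decarboxylase gene, had means of 451 in WT, 1272 in hpr1del, 5916 in sub2del and 3972 in tho2del. It was the gene higher in each mutant. SFA1 and ADH1, named here after their values were seen, were the others higher in tho2del, by 0.26 ± 0.08 and 0.20 ± 0.07 on the log2 scale (limma adjusted p = 0.0232 and 0.0322). ATF2, an alcohol acetyltransferase gene, was lower by 1.91 ± 0.18 in hpr1del and 2.84 ± 0.20 in sub2del on the log2 scale (limma adjusted p = 0.000163 and 1.84e-05), and it had 1 value in tho2del. THI3 was lower in all 3 mutants, by 0.74 to 1.11, and so was PDC6, a minor pyruvate decarboxylase gene, by 0.74 to 0.93.

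GCN4 mRNA showed no difference past the test. It read 16657, 20238 and 19381 in WT, 18276, 18243 and 18237 in hpr1del, 18048 and 19368 in tho2del, and 17547 and 16847 in sub2del, and 95% intervals against WT reached from -0.33 to 0.21. Gcn4 is regulated mainly through translation, so its mRNA does not measure its activity. GCN1, which is needed to activate the kinase of this response, fell by 0.56 ± 0.07, 0.79 ± 0.08 and 0.76 ± 0.08 in hpr1del, sub2del and tho2del (limma adjusted p = 0.000548, 6.76e-05 and 0.000111). Of the 5 genes of general control, it was the only one called against WT in any mutant, the others being GCN4, GCN20, GCN2 and GCN3. In each mutant 1 of 5 was thus lower, no more than the array-wide shares called lower, 22.8%, 40.4% and 32.6%.

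Ilv3 and Leu1 need the mitochondrial assembly of iron-sulfur clusters. Of 13 tested genes of that process, 2 were lower and 4 higher in hpr1del, and of 12, 6 were lower and 1 higher in sub2del and 7 lower and 2 higher in tho2del. Over all tested probe sets 22.8%, 40.4% and 32.6% were lower and 22.8%, 20.8% and 24.4% higher. The higher genes are named here after their values were seen. ISD11 was higher in all 3 mutants (0.44 ± 0.08, 0.38 ± 0.09 and 0.37 ± 0.09), ATM1 in hpr1del and tho2del, and ARH1 and SSQ1 in hpr1del. Against hpr1del, 7 of 13 were lower in sub2del and 5 of 13 in tho2del, with 0 higher in both, where 35.6% and 22.3% of all tested probe sets were lower. ISA2, which acts late in the assembly of clusters, read 2350, 2758 and 2602 in WT, 1823, 1603 and 1660 in hpr1del, 1269 and 1419 in tho2del, and 1159 and 963 in sub2del. ISA2 fell in all 3 mutants (-0.59 ± 0.10 in hpr1del, -1.27 ± 0.11 in sub2del and -0.93 ± 0.11 in tho2del, limma adjusted p = 0.00157, 2.60e-05 and 0.000168). IBA57, which works with Isa2, fell in all 3 too, with log2 changes of -1.32 ± 0.25, -1.61 ± 0.27 and -2.08 ± 0.27 (limma adjusted p = 0.00282, 0.00102 and 0.000294). NFS1, the cysteine desulfurase that supplies the sulfur, read 1661, 2147 and 1970 in WT, 1631, 1735 and 1677 in hpr1del, 935 and 858 in tho2del, and 1051 and 933 in sub2del. In hpr1del NFS1 differed from WT by -0.19 (limma adjusted p = 0.160), and YFH1, the yeast frataxin gene, by -0.09 (0.287), while YFH1 fell by 0.46 in sub2del and 0.55 in tho2del on the log2 scale (limma adjusted p = 0.000493 and 0.000222). NFS1 differed from hpr1del by -0.75 ± 0.11 in sub2del and -0.90 ± 0.11 in tho2del (limma adjusted p = 0.000810 and 0.000639).

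The pattern of the 10 genes was also set against that of other genes. The 6 members with 10 values were averaged after each was centred on its own mean, and 4131 named probe sets with 10 values were ranked by Pearson's r with that average over the 10 arrays. The most alike were MAS2, a subunit of the mitochondrial processing protease (r = 0.993), GDS1 (0.992), AFT1, the activator of the iron regulon (0.992), AAT2, the cytosolic aspartate aminotransferase (0.991), and MDM34, of the contact sites between mitochondria and endoplasmic reticulum (0.990). MAS2 read 2762, 4059 and 3545 in WT, 2024, 2193 and 2197 in hpr1del, 1444 and 1354 in tho2del, and 1381 and 1254 in sub2del. The points share 4 strains and the arrays themselves, so r describes a likeness in these arrays only. It includes that WT replicate 1 was lowest and replicate 2 highest of the WT arrays for MAS2, as for 5 of the 10 genes.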

How the data were processed

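The authors' deposited table held 1 linear intensity per probe set for each of 10 single-colour Affymetrix arrays. Per the labels' protocols, total RNA was labelled with biotin by the array maker's protocol. Software, background correction and the scaling of arrays stay unknown, being not given in the sources used here. Scanner files were not used. Precision is limited by the number of arrays.

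The genes and all lists were chosen with earlier results of these data known. Probe sets took the platform's gene names, of which 12 got newer symbols from the R64 gene table by their identifiers. Of 5716 probe sets 5498 had 1 gene and 218 had none. No sequence of these genes or their promoters was used here, and no coordinates are printed, since the array's build is not stated.

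The log2 of intensity + 16 was analysed, so fold changes of dim genes are understated. limma 3.58.1 in R 4.3.3 fitted a mean per strain with 1 spread shared by all 10 arrays, with empirical Bayes moderation. Arrays with an empty cell dropped out for that probe set, and both strains needed at least 2 values for a test. P-values were adjusted by Benjamini-Hochberg over all tested probe sets in each of 6 comparisons and called under 0.05. Errors are standard errors. The code was tested on simulated data. Alternatives were quantile normalization, subtraction of array medians, offsets of 1 and 64, removal of the dimmest 25% of probe sets, only the arrays compared, only complete probe sets, the replicate number as a block, arrays split at 100 empty cells as a block or apart, and leaving out each array. In each related list, the text names up to 4 genes with the lowest adjusted p against WT, with BAT2, LEU2, GCN4, OAC1, GDH1 and CHA1 always. Genes said to be named after their values were seen come on top of these.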

Additional observations from a re-analysis of the deposited data

How the results depend on the processing

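Over the 10 genes, 6 comparisons and all alternatives, 773 log2 changes were recomputed. Of these, 713 kept their direction and side of the threshold, 30 lost a call, 22 gained one and 8 changed sign. The sign changes were all of uncalled differences. Between sub2del and tho2del, LEU3 came to 0.0657 after quantile normalization, ILV1 to 0.0457, LEU3 to 0.0364 and BAT1 to 0.0222 after array medians were subtracted, LEU9 to -0.0134 without sub2del replicate 2 (0.2314 without replicate 1) and ILV1 to 0.0018 without tho2del replicate 1 (-0.1435 without replicate 2). With the kind of array as a block, LEU3 came to -0.3009 in sub2del and -0.2208 in tho2del against hpr1del. With only complete probe sets, 6 genes were left, of which 5 passed in each mutant against WT and 3 in sub2del and in tho2del against hpr1del. Fewer genes tested account for that count. The share of all probe sets called in that setting is not given here.

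Against hpr1del with the kind of array as a block, 3 of 6 genes and 1104 probe sets passed in tho2del, where 1799 probe sets passed as reported, and with only the arrays compared 2849 did. Leaving out single arrays gave 4 to 8 genes called in hpr1del, 5 to 9 in sub2del and 5 to 9 in tho2del against WT. The lowest counts, 4 of 6, 5 of 6 and 5 of 6, came without WT replicate 3, since the other 4 genes then had 1 WT value. It gave 3 to 5 genes and 1057 to 1341 probe sets called in tho2del against hpr1del, and 369 to 540 probe sets in sub2del against tho2del, against 936 with all arrays. A lone array of a strain was assumed to vary like the other strains. Array scaling moved the balance of all calls. Higher calls made up 34.0% in sub2del against WT as deposited and 46.8% after array medians were subtracted, 40.8% and 29.7% (quantile) in tho2del against hpr1del, and 41.1% and 71.3% (medians) in sub2del against tho2del.

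The labels give the strains the same replicate numbers. Deviations of same-numbered arrays from their strain means correlated between -0.21 and 0.11, with 1 of 13 pairs above 0.1, so the numbers were not taken as pairs. With the replicate block, 8, 8 and 9 genes passed in hpr1del, sub2del and tho2del against WT, 4 and 5 in sub2del and tho2del against hpr1del, and 0 between sub2del and tho2del. The share of all probe sets called with this block is not given here, so these counts are not set against the whole array. Against hpr1del, this block ended the calls of ILV1 (limma adjusted p = 0.0701) and ILV6 (0.0719) in sub2del and of ILV2 in tho2del (0.0973). The comparisons of sub2del and tho2del with hpr1del could not be made within 1 kind of array.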

Other observations

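HOM6, the homoserine dehydrogenase gene of threonine and methionine synthesis, was picked out after its values were seen. It read 9595, 11224 and 10503 in WT, 10777, 10533 and 10537 in hpr1del, 8474 and 8496 in tho2del, and 13499 and 12805 in sub2del. HOM6 was higher than WT in sub2del (log2 0.34 ± 0.08, limma adjusted p = 0.00534) and lower in tho2del (-0.30 ± 0.08, limma adjusted p = 0.0110), and the difference between these strains was 0.63 ± 0.09 (limma adjusted p = 0.00208). Of the 9 branched-chain genes tested between sub2del and tho2del, 0 passed with limma and 0 had an unadjusted p under 0.05. ILV3 was not tested, and its only sub2del value, 9665, lay above both tho2del values, 7172 and 7320.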
